A study of Mus musculus with 12 samples.

Results

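Transcripts of 10 genes that mark and build the blood-brain barrier of brain endothelium were followed in striatal RNA, out of the 24421 genes in the count table. The genes were picked by name as a list of barrier genes: Cldn5, Cdh5, Pecam1, Slc2a1, Mfsd2a, Slco1a4, Abcb1a, Flt1, Tek and Ly6c1. The 12 libraries came from bilateral striatum of male C57BL/6J mice, an inbred strain. In 6 libraries the animals had received saline and in 6 varenicline at 2 mg/kg, a smoking cessation drug that is a partial agonist of nicotinic acetylcholine receptors. All animals drank 20% ethanol in the Drinking-in-the-Dark procedure, in which an ethanol tube is offered for 2 h beginning 3 h after lights go off, over 3 cycles of 2 days. Every animal had a saline injection in the first cycle, and in the last 2 cycles the assigned injection was given 30 min before the second drinking session. Both groups thus had ethanol and injections, and no group without ethanol was analysed here. Neither the age of the mice nor whether a library held 1 animal is given here, and the p-values therefore cover only the spread between these libraries.

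The endothelial cells of brain capillaries are joined by tight junctions that close the path between cells, so that nutrients and drugs must pass through the cell itself. Carriers bring glucose and lipids into the brain, and efflux pumps return many drugs to the blood. Receptors for vascular growth factors maintain these vessels. Endothelium is a small part of striatal tissue, and in bulk RNA fewer cells of a type and less RNA per cell cannot be told apart. All 10 genes were detected in every library, with at least 242 counts in each, and all 10 passed the filter on low counts.

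The start regions of 3 members are shown because they stand for the tight junction (Cldn5) and for the carriers on which the group comparison turns (Mfsd2a and Slco1a4). RefSeq (build GRCm38.p6) gave a window for 8 of the 10 genes. Pecam1 and Cdh5 had none. The 250 bases before the annotated start are printed 5′ to 3′ on the strand of the gene. Capitals mark matches, on either strand, to AGGAAG (ETS core), ACAATG (SOX core) or CTTTGA (TCF/LEF core), short motifs of factor families that act in endothelium.
Cldn5, chr16:18776597-18776846, plus strand: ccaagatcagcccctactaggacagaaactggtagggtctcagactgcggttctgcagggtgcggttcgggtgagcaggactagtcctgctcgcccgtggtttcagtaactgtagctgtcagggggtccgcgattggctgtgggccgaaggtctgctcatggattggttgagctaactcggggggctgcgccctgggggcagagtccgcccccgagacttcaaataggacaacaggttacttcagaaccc
Mfsd2a, chr4:122961189-122961438, minus strand: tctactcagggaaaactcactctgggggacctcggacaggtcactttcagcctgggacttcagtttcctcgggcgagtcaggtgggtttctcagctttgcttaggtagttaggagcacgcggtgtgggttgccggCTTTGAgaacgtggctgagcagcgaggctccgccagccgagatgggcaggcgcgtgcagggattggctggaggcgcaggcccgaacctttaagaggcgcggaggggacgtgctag
Slco1a4, chr6:141856221-141856470, minus strand: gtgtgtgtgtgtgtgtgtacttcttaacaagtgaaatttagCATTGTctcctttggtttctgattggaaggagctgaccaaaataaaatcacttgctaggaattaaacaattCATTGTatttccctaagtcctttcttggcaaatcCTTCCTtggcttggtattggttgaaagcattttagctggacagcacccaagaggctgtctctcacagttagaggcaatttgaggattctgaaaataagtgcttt
The window of Cldn5 held 12 CpG dinucleotides and none of these motifs, and that of Mfsd2a held 17 CpG and 1 TCF/LEF core. The window of Slco1a4 held 0 CpG, 1 ETS core and 2 SOX cores. Its GC content was 39.2%, against 59.6% for Cldn5 and 61.6% for Mfsd2a, and the median over 32851 RefSeq windows was 52.4% with 6 CpG. Of all windows of this length 29.5% held an ETS core, 10.7% a SOX core and 13.8% a TCF/LEF core, and no match overlapped another in the windows shown. The 2 carriers that differed most between the groups thus had start regions that differ in base composition. The start of Slco1a4 in the count table lay 49 bases from the RefSeq start, while those of Cldn5 and Mfsd2a were the same in both. That of Abcb1a lay 93001 bases away, and its window is not shown.

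Levels of the 10 genes were compared per transcript length, in the FPKM values (reads scaled by transcript length and library size) that the authors deposited, as mean ± SD over the 12 libraries. Ly6c1, a small surface protein of mouse brain endothelium and of some monocytes, had the highest level at 63.6 ± 4.72 FPKM. Slc2a1, the glucose carrier GLUT1 of endothelium that astrocytes also make, followed at 50.9 ± 4.86 FPKM. Cldn5, the main claudin of brain tight junctions, had 33.4 ± 2.61 FPKM. In FPKM these 3 transcripts were above all the others in each library. Slco1a4, a carrier of organic anions and steroid conjugates, had 21.1 ± 3.22 FPKM. Mfsd2a, which carries lysolipids with omega-3 fatty acids and restrains vesicle traffic through the cell, had 16.9 ± 1.97 FPKM. The receptor Flt1 had 14.5 ± 1.24 FPKM, the efflux pump Abcb1a 11.3 ± 0.616 FPKM and the adhesion protein Pecam1 9.71 ± 0.969 FPKM. Cdh5, the cadherin of endothelial junctions, and the receptor Tek were the lowest, at 5.71 ± 0.839 and 5.002 ± 0.466 FPKM.

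Some neighbours in this order did not differ beyond their spread. Cdh5 was above Tek in 10 of 12 libraries and Mfsd2a above Flt1 in 10 of 12, with overlapping ranges. The ranges of Slc2a1 and Cldn5, of Cldn5 and Slco1a4, and of Pecam1 and Cdh5 did not overlap. The place of Ly6c1 depended on the length used. In CPM (counts scaled by library size) per kilobase of the exon length in the count table, which is 1645 bases for Ly6c1, it had 25.004 ± 1.77 and came after Slc2a1 (46.9 ± 4.34) and Cldn5 (28.4 ± 2.25). In this unit Ly6c1 was above Slco1a4 in 11 of 12 libraries, with overlapping ranges.

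**Figure D1:**
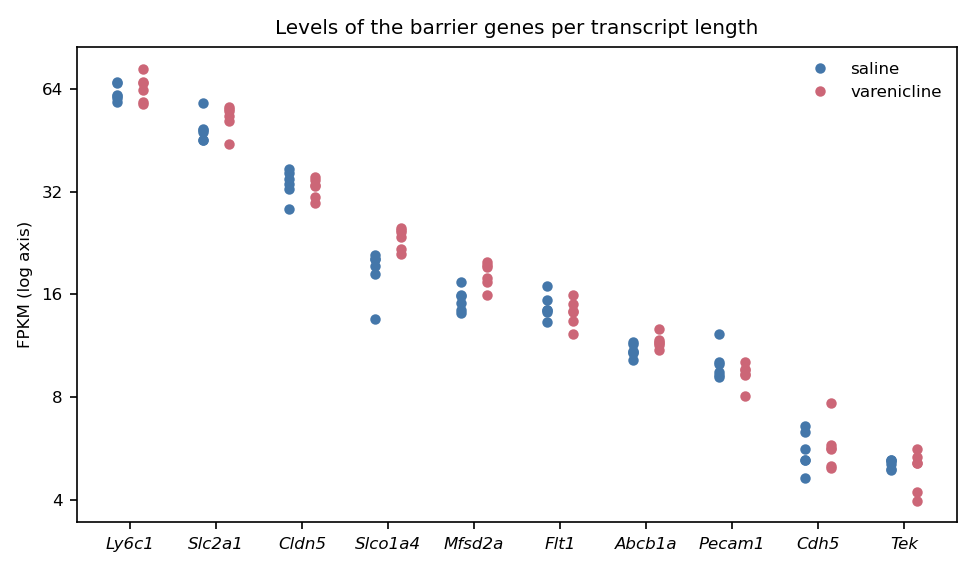
FPKM of the 10 barrier genes in each library (log axis), ordered by mean, with 6 saline points and 6 varenicline points per gene. Means run from 63.6 FPKM for Ly6c1 to 5.002 FPKM for Tek, and the groups overlap in every gene except Slco1a4.

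The group comparison asks which of these transcripts differ between varenicline and saline in drinking mice. Slco1a4 and Mfsd2a, 2 carriers, had the largest differences of the 10 genes, with levels 24.4% and 18.1% higher in the varenicline libraries. The other 8 differed by at most 6.90% in either direction. In edgeR's quasi-likelihood test with Benjamini-Hochberg adjustment over the 15148 genes tested, 0 of 10 members passed an adjusted p of 0.05, as did 0% of all genes. Of the members 2 had an unadjusted p under 0.05, both higher, beside a background of 7.26% of all genes higher and 9.63% lower. By sign, 6 of 10 members were higher, beside 52.3% of all genes. The median log2 fold change was 0.0393 for the members and 0.00739 for all genes tested. DESeq2 and limma-voom with sample weights each called 2 members, Slco1a4 and Mfsd2a, both higher, where they called 3.1% and 13.9% of the genes they tested in either direction and 1.11% and 4.82% as higher.

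Slco1a4 (ENSMUSG00000030237, mm10 chromosome 6, 141805440 to 141856171, minus strand) encodes Oatp1a4, which moves bile acids, steroid conjugates and some drugs across the barrier. The lowest, median and highest values were 53.5, 77.4 and 82.4 CPM in saline libraries and 81.4, 93.7 and 98.3 CPM in varenicline libraries. Of the 6 varenicline libraries 5 lay above every saline library, and the groups overlapped through 1 library of each. The saline mean was 73.7 ± 10.6 CPM and the varenicline mean 91.6 ± 7.19 CPM (SD, n = 6 each). The log2 fold change of Slco1a4 was 0.31 (SE 0.0892, 95% interval 0.13 to 0.50, edgeR unadjusted p = 0.00293, adjusted p = 0.145). In the deposited FPKM its groups did not overlap, the highest saline value being 20.9 and the lowest varenicline value 21.1, as held for 0.8% of the genes tested that have an FPKM row. Saline 6, at 53.5 CPM, lay far below the other saline libraries, and without it the log2 fold change was 0.24 (edgeR adjusted p = 0.120). Without varenicline 6, the lowest of its group, it was 0.36 and passed the threshold (edgeR adjusted p = 0.0205), in a fit that called 10.7% of all genes, 3.55% as higher.

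Mfsd2a (ENSMUSG00000028655, chromosome 4, 122946851 to 122961188, minus strand) had 27.88, 30.7 and 34.3 CPM as lowest, median and highest saline values and 32.4, 36.7 and 39.3 CPM with varenicline. Of the varenicline libraries 4 lay above every saline library, and 1 saline library, saline 6, reached into the varenicline range. The means were 30.6 ± 2.31 and 36.2 ± 2.83 CPM (SD, n = 6 each). The log2 fold change of Mfsd2a was 0.24 (SE 0.0673, 95% interval 0.097 to 0.38, edgeR unadjusted p = 0.00272, adjusted p = 0.143). All 6 varenicline libraries were above the saline mean for both carriers. Without varenicline 6 the log2 fold change was 0.23 and passed (edgeR adjusted p = 0.0441). Saline 6 was the highest saline library for Mfsd2a and the lowest for Slco1a4, so this library narrowed the first difference (0.28 without it) and widened the second.

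**Figure D2:**
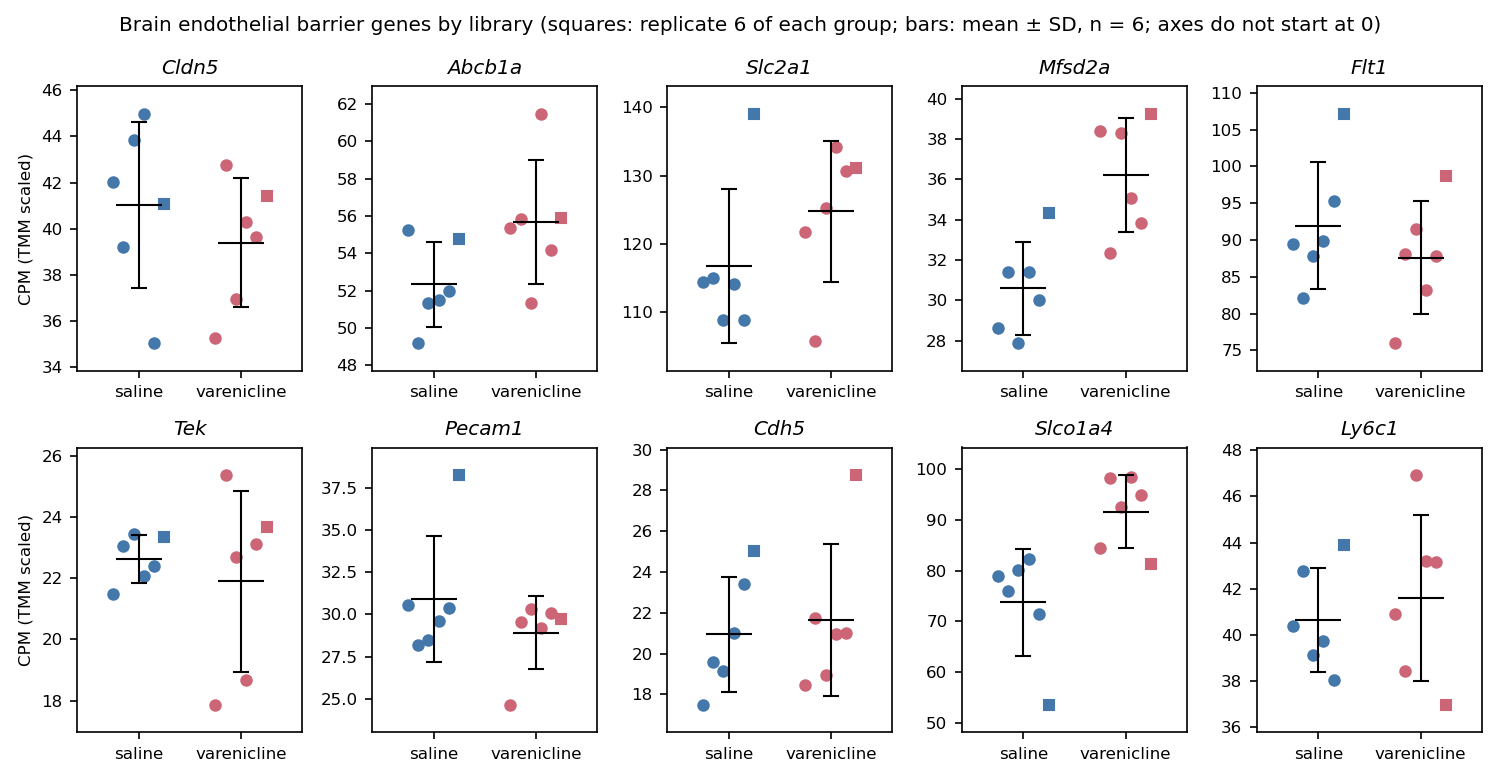
CPM of the 10 genes in each library, with group means ± SD (n = 6 each) and squares for replicate 6 of each group; the axes do not start at 0. Most varenicline points lie above the saline points in Slco1a4 and Mfsd2a, and saline 6 stands apart in Slco1a4 (53.5 CPM), Slc2a1 (139 CPM) and Pecam1 (38.3 CPM).

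Markers of other cell types differed between the same libraries. The summed level of 12 cortical excitatory neuron markers was 765 to 1310 CPM with saline and 234 to 1148 CPM with varenicline, with varenicline 6 at 1148 CPM. All 12 were lower by sign, 9 of them at an unadjusted p under 0.05, beside 9.63% of all genes lower at that p. With the mean log2 CPM of these markers as a covariate, the log2 fold change was 0.26 for Slco1a4 (edgeR adjusted p = 0.968) and 0.25 for Mfsd2a (edgeR adjusted p = 0.894). With that covariate and without varenicline 6 it was 0.41 for Slco1a4 (SE 0.176) and 0.11 for Mfsd2a (SE 0.124; edgeR adjusted p = 0.434 and 0.730). Without varenicline 6 the covariate was 4.51 to 5.33 in saline libraries and 2.68 to 4.15 in varenicline libraries. The groups did not overlap in it, so this fit cannot tell treatment from the marker level. With all 12 libraries the groups overlapped in the covariate only through varenicline 6, at 5.25. Values with the cortical covariate, here and below, are limited by this. The Slco1a4 estimate was at least 0.23 in each of the 25 alternative settings. That of Mfsd2a was below 0.22 only with that covariate and without varenicline 6. With the mean log2 CPM of 40 other endothelial genes as a covariate, the values were 0.30 and 0.25 (edgeR adjusted p = 0.113 and 0.105). The adjusted p over the alternatives ran from 0.00642 to 0.968 for Slco1a4 and from 0.0172 to 0.894 for Mfsd2a.

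**Figure D3:**
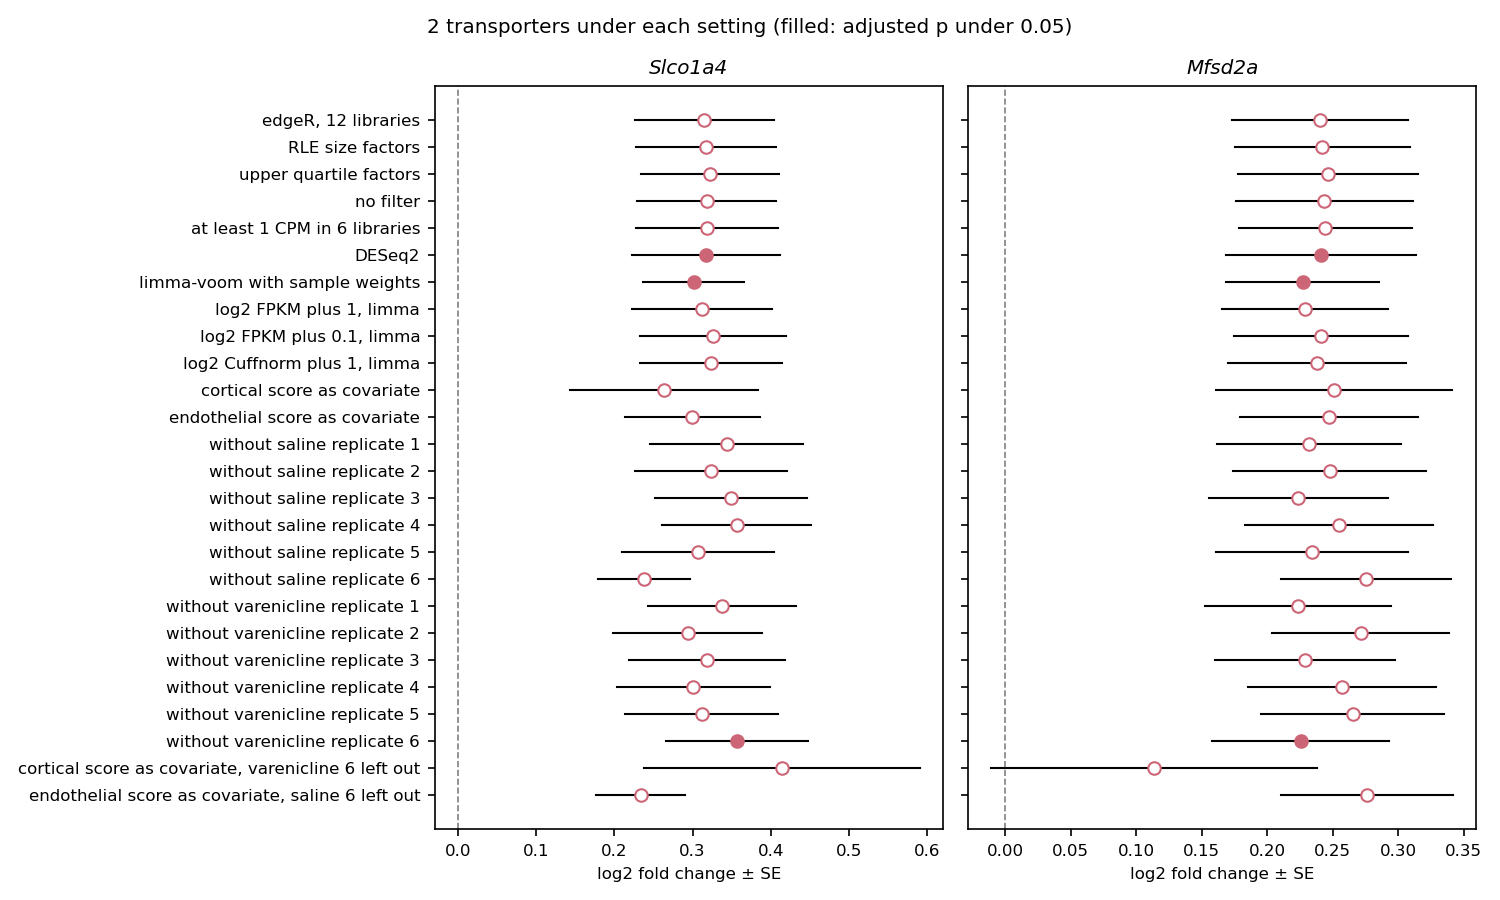
Log2 fold change ± SE of Slco1a4 and Mfsd2a with 12 libraries and under each of the 25 alternative settings; filled points have an adjusted p under 0.05. Every estimate is above 0, and the points that pass are those of DESeq2, limma-voom and the fit without varenicline replicate 6.

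The other carrier and the efflux pump differed less. Slc2a1 (ENSMUSG00000028645, chromosome 4, 119108745 to 119137329, plus strand) had 109, 114 and 139 CPM as lowest, median and highest saline values and 106, 128 and 134 CPM with varenicline. Of the varenicline libraries 5 lay above 5 of the saline libraries, and the overlap came from saline 6, the highest of all, and varenicline 2, the lowest of all. Its log2 fold change was 0.0963 (95% interval -0.0507 to 0.24, edgeR adjusted p = 0.501), 0.15 without saline 6 and 0.14 without varenicline 2. Abcb1a (ENSMUSG00000040584, chromosome 5, 8660092 to 8748570, plus strand) encodes P-glycoprotein, which pumps many drugs back into the blood. Its values were 49.2, 51.7 and 55.2 CPM with saline and 51.4, 55.6 and 61.5 CPM with varenicline. Although 4 varenicline libraries were above the highest saline library, the difference was small, at 0.0904 on the log2 scale (95% interval -0.0198 to 0.20, edgeR adjusted p = 0.386).

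The junction and adhesion genes did not pass the test, nor did any other member. Cldn5 (ENSMUSG00000041378, chromosome 16, 18776847 to 18778262, plus strand, 1 exon) had 35.0, 41.5 and 44.99 CPM with saline and 35.3, 40.0 and 42.8 CPM with varenicline. No varenicline library exceeded the highest saline library, and the log2 fold change of Cldn5 was -0.0574 (95% interval -0.20 to 0.0878, edgeR adjusted p = 0.705). The interval corresponds to a ratio of varenicline to saline between 0.869 and 1.06. Leaving out 1 library gave values from -0.0994 (without saline 5) to -0.0218 (without saline 4), with -0.0279, -0.0287 and -0.0328 without saline 3, varenicline 1 and varenicline 3. Pecam1 (ENSMUSG00000020717, chromosome 11, 106654213 to 106715281, minus strand), an adhesion protein of endothelial contacts also found on platelets and leukocytes, had 28.2, 30.0 and 38.3 CPM with saline and 24.7, 29.6 and 30.3 CPM with varenicline. Saline 6 was the high value and varenicline 1 the low one, and the other 10 libraries lay between them within a narrow band. The log2 fold change of Pecam1 was -0.0929 (95% interval -0.26 to 0.0752, edgeR adjusted p = 0.578), and it was -0.0223 without saline 6 and -0.0527 without varenicline 1. Cdh5 (ENSMUSG00000031871, chromosome 8, 104101625 to 104144502, plus strand) had 17.5, 20.31 and 25.02 CPM with saline and 18.5, 21.0 and 28.8 CPM with varenicline. The highest value was varenicline 6, and the log2 fold change of Cdh5 was 0.0451 with all libraries (95% interval -0.19 to 0.28, edgeR adjusted p = 0.869) and -0.0409 without it.

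Neither growth factor receptor, nor Ly6c1, passed the test. Flt1 (ENSMUSG00000029648, chromosome 5, 147562196 to 147725988, minus strand), the VEGF receptor that also acts as a decoy, had 82.1, 89.7 and 107 CPM with saline and 75.9, 88.0 and 98.8 CPM with varenicline. The log2 fold change of Flt1 was -0.0698 (95% interval -0.22 to 0.0778, edgeR adjusted p = 0.640), and it was -0.0211 without saline 6 and -0.0329 without varenicline 1, the highest and the lowest library. Tek (ENSMUSG00000006386, chromosome 4, 94739289 to 94874976, plus strand), the angiopoietin receptor TIE2, had 21.5, 22.7 and 23.4 CPM with saline and 17.9, 22.9 and 25.4 CPM with varenicline. The saline libraries of Tek were close together, with a coefficient of variation (CV) of 3.43%, against 13.6% with varenicline, where varenicline 1 and 4 were low. Its log2 fold change was -0.0458 (95% interval -0.22 to 0.13, edgeR adjusted p = 0.818), and 0.00366 and 0.00524 without either of these libraries. Ly6c1 (ENSMUSG00000079018, chromosome 15, 75044018 to 75048837, minus strand) had 38.03, 40.1 and 43.9 CPM with saline and 37.0, 42.0 and 46.9 CPM with varenicline. The log2 fold change of Ly6c1 was 0.0335 (95% interval -0.10 to 0.17, edgeR adjusted p = 0.828), and -0.10 with the cortical covariate. Leaving out 1 library gave values from 0.00191 (without varenicline 3) to 0.0754 (without varenicline 6), both libraries being the extremes of their group.

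**Figure D4:**
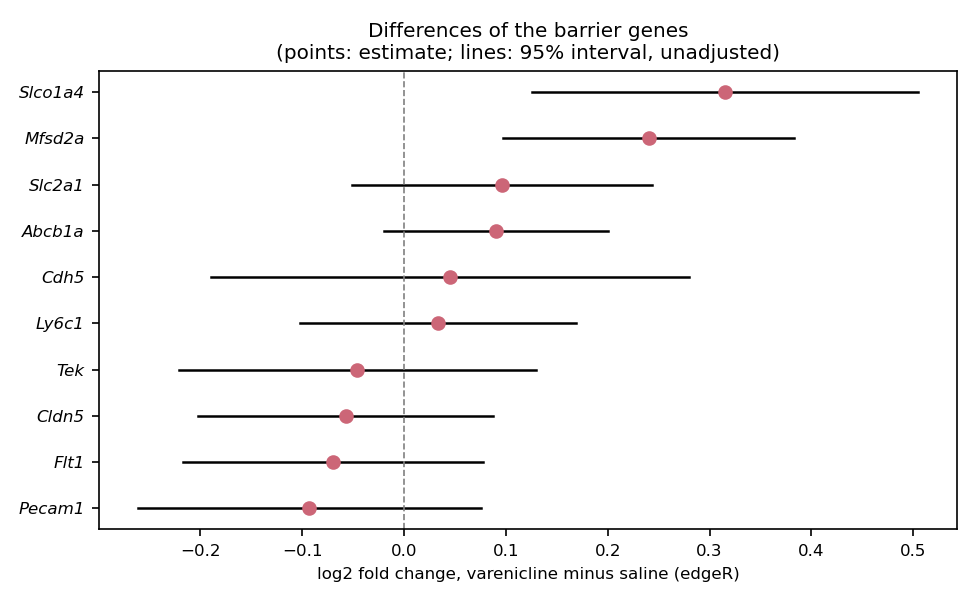
Log2 fold change (varenicline minus saline, edgeR) of the 10 genes with unadjusted 95% intervals, ordered by size. The intervals of Slco1a4 (0.13 to 0.50) and Mfsd2a (0.097 to 0.38) lie above 0 and the other 8 include it.

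Across libraries the 10 genes did not all move together. The CV of the members had a median of 9.03% over saline libraries and 8.06% over varenicline libraries, beside 10.6% and 10.7% over all genes tested. Of the 45 pairs of members, 27 had a positive Pearson correlation of log2 CPM over the 12 libraries, and the median r was 0.0917. Flt1 and Pecam1 went together most closely, with r = 0.88 (permutation p = 0.00026, adjusted over the 45 pairs p = 0.0117) and Spearman's rho = 0.83 (permutation p = 0.00149, adjusted p = 0.0670). Within the groups r was 0.87, and without saline 6 and varenicline 1, the libraries farthest from the median of Flt1, it was 0.61. No other pair passed the adjusted threshold for r. For Slc2a1 and Mfsd2a, r was 0.67 (permutation p = 0.0192, adjusted p = 0.289) and rho 0.71 (permutation p = 0.0132, adjusted p = 0.297), and 0.76 without saline 6 and varenicline 4. The r of Slco1a4 with the mean of the other 9 members was -0.33, which was not tested. Its r with Pecam1, -0.62, was 0.09 without saline 6 and varenicline 1. These values describe libraries that differ in depth and in the summed markers of other cell types. The part of either in these correlations was not tested.

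The mean of the 10 members per library, in log2 CPM centred by gene, was lowest in varenicline 1 (-0.0890) and highest in varenicline 6 (0.0988). The genes most like this mean over the 12 libraries were Csf1r, the microglial growth factor receptor, with r = 0.93, the adhesion adaptor Tns1 with 0.92, the protocadherin Pcdhgc3 with 0.91 and the DNA repair gene Ercc1 with 0.91. The spectrin Sptb followed with 0.88, Krtcap2 with 0.86, Zfp598 with 0.85 and Gpam with 0.85. Of 15138 other genes 0.231% had an r over 0.8. The median r with the mean of the members was 0.29 for the 40 other endothelial genes, 0.31 for pericyte markers, 0.40 for Wnt pathway genes and transcription factors of the barrier and -0.0274 for all other genes. It was lower for tight junction partners (0.0469), VEGF and angiopoietin genes (0.0691), other barrier transporters (0.115), smooth muscle genes (0.14), caveolae and activation genes (0.21) and arterial and venous genes (0.26). It was 0.49 for 10 microglial markers, 0.41 for striatal projection neuron markers, 0.33 for oligodendrocyte markers and 0.30 for astrocyte markers. The median was negative for cortical (-0.38), choroid plexus (-0.37), fibroblast and meningeal (-0.24) and immune markers (-0.23).

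Of 17 tested tight junction partners, 11 were higher and 6 lower by sign with a median log2 fold change of 0.0726, and 4 were higher at an unadjusted p under 0.05. The shares over all genes were 52.3% higher by sign and 7.26% higher at that p. None of the 17 passed the adjusted threshold in edgeR with all libraries. Cldn10, a claudin found also in astrocytes and epithelia, was 28.4 ± 1.34 CPM with saline and 31.9 ± 1.04 CPM with varenicline (log2 fold change 0.17, edgeR adjusted p = 0.148). Its groups did not overlap, as held for 0.759% of all genes tested. Ocln, the tight junction protein occludin, was 11.2 ± 0.966 and 13.1 ± 1.497 CPM (0.22, edgeR adjusted p = 0.227), and Cldn12 61.9 ± 4.62 and 68.7 ± 6.13 CPM (0.15, edgeR adjusted p = 0.266). Cldn10 passed with limma-voom (0.16, adjusted p = 0.0310) and Cldn12 without varenicline 6 (0.20, edgeR adjusted p = 0.0476).

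Other transporters of the barrier were split in direction. Of 29 tested, 12 were higher and 17 lower by sign, with a median log2 fold change of -0.0314, and 5 had an unadjusted p under 0.05, 2 of them higher and 3 lower. The shares over all genes were 7.26% higher and 9.63% lower at that p. Slc16a1, the monocarboxylate carrier MCT1, was 33.1 ± 3.12 CPM with saline and 37.7 ± 2.25 CPM with varenicline (log2 fold change 0.19, edgeR adjusted p = 0.192). Abcc4, an efflux pump, was 20.5 ± 1.95 and 24.97 ± 4.20 CPM (0.28, edgeR adjusted p = 0.213). The zinc carrier Slc39a10 was 186 ± 28.4 and 160 ± 7.51 CPM (-0.22, edgeR adjusted p = 0.207).

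Of 14 VEGF and angiopoietin genes, 3 were higher and 11 lower by sign (median -0.0736), and 1 was higher at an unadjusted p under 0.05. This was Angpt2, a ligand of Tek, at 1.12 ± 0.379 CPM with saline and 1.69 ± 0.212 CPM with varenicline (log2 fold change 0.55, edgeR adjusted p = 0.223), a low level of 359 counts in all libraries together. Angpt1, the activating ligand of Tek, was 3.02 ± 0.651 and 2.22 ± 0.735 CPM (-0.45, edgeR adjusted p = 0.307), and shares 653 exon bases with the antisense gene Gm17473. Vegfb, a ligand of Flt1, was 51.1 ± 2.97 and 46.6 ± 5.21 CPM (-0.13, edgeR adjusted p = 0.352). Of 28 Wnt pathway genes and transcription factors of the barrier, 14 were higher and 14 lower (median 0.0150). The background here, as for the VEGF genes, was 52.3% of all genes higher by sign and 7.26% at an unadjusted p under 0.05. Of the 28, 2 were higher at that p. The ETS factor Fli1 was 4.07 ± 0.707 and 5.28 ± 0.733 CPM (0.38, edgeR adjusted p = 0.199). Reck, a part of the Wnt7 receptor complex and not one of these 2, had a log2 fold change of 0.17 (edgeR unadjusted p = 0.0514, adjusted p = 0.301).

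The 40 other endothelial surface and identity genes were split, 22 higher and 18 lower by sign, with a median of 0.00717 and 4 lower at an unadjusted p under 0.05. This count is near the background of 9.63% of all genes lower at that p. The 3 genes with the smallest unadjusted p of these 40 were Cd34, Ly6e and Ablim1. They were lower by 0.50, 0.54 and 0.40 on the log2 scale (edgeR adjusted p = 0.143, 0.143 and 0.132), and with the cortical covariate by 0.14, 0.16 and 0.11. Without varenicline 6 all 3 passed, at -0.64, -0.73 and -0.50 (edgeR adjusted p = 0.00106, 0.000549 and 0.000549), in a fit that called 10.7% of all genes. They passed with limma-voom too, which called 13.9% of all genes. Cd34 and Ablim1 passed with DESeq2 (adjusted p = 0.0263 and 0.0157), which called 3.1% of the genes it tested. Cd34 was 43.2 ± 6.39 CPM with saline and 30.5 ± 7.94 CPM with varenicline. Of 10 genes of caveolae, fenestration and activation 4 were higher and 6 lower (median -0.0176), with Ehd2 at -0.22 (edgeR adjusted p = 0.241), Sdpr at 0.20 and Ptrf at -0.11. Of 16 arterial and venous genes 8 were higher and 8 lower (median 0.00555), with Stmn2, which neurons also make in quantity, at -0.56 (edgeR adjusted p = 0.143) and -0.12 with the cortical covariate. Ackr1, a venular chemokine receptor, had -0.19 (edgeR adjusted p = 0.182), and Efnb2, an arterial ephrin, 0.19 (edgeR adjusted p = 0.197).

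Markers of the cells around the endothelium were also followed, beside 52.3% of all genes higher by sign. Of 15 pericyte markers 11 were higher and 4 lower (median 0.0286), with summed levels of 259 to 313 CPM with saline and 266 to 312 CPM with varenicline. Art3 had a log2 fold change of 0.32 (edgeR adjusted p = 0.281), P2ry14 0.19 and Pdgfrb, the receptor that recruits pericytes, 0.12. Of 9 smooth muscle genes 2 were higher and 7 lower (median -0.0808), with Mylk at -0.24 (edgeR adjusted p = 0.148), Acta2 at -0.20 and Tagln at -0.13. Of 13 astrocyte markers 13 were higher by sign (median 0.0975), 5 at an unadjusted p under 0.05, beside 7.26% of all genes higher at that p. The astrocyte markers summed to 6262 to 6725 CPM with saline and 6471 to 7211 CPM with varenicline. Slc4a4, Gja1 and Gjb6 were higher by 0.21, 0.19 and 0.26 (edgeR adjusted p = 0.147, 0.152 and 0.184). Their part in the differences of Slc2a1, which astrocytes also express, and of the other members was not tested.

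**Figure D5:**
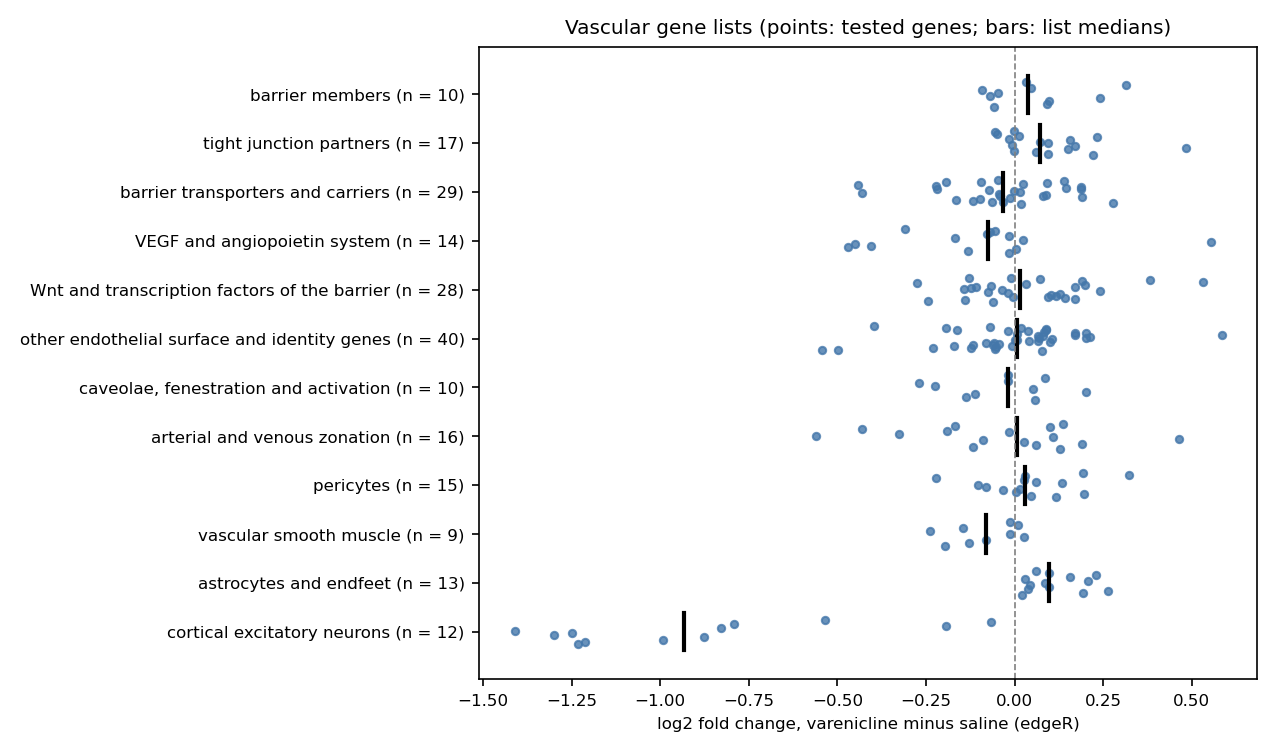
Log2 fold change (varenicline minus saline, edgeR) of each tested gene in the members and in 11 lists, with list medians as bars. The medians of the vascular lists lie between -0.0808 and 0.0726, and that of the cortical markers is -0.93.

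Markers of the remaining cell types were as follows, beside 52.3% of all genes higher by sign. Of 10 oligodendrocyte markers 9 were higher (median 0.17), of 12 striatal projection neuron markers 12 (median 0.20), of 10 choroid plexus markers 10 (median 0.33) and of 12 fibroblast and meningeal markers 10 (median 0.13). Of 10 microglial markers 5 were higher (median 0.00144), and of 3 tested immune markers 2. The striatal markers summed to 7957 to 12475 CPM with saline and 8598 to 13823 CPM with varenicline, which matches the labelled tissue. Choroid plexus markers summed to 460 to 2922 CPM with saline and 472 to 3171 CPM with varenicline. Alas2, the 1 red blood cell gene tested, had a log2 fold change of 0.37 (edgeR adjusted p = 0.196). The part of these cells in the members' differences was not tested.

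Close relatives of the members were low in counts or did not pass the test. Ly6c2 had 5 counts in all libraries together, Slco1a6 6, Slco1a1 0, Slco1a5 109 and Cldn3 40, too few to be tested. How the authors' counting treated reads that match both a member and a relative is not stated. Abcb1b had 1060 counts against 13804 for Abcb1a, and its log2 fold change was -0.0314 with a sign that turned in 8 alternatives. Of the 8 relatives tested 7 were lower by sign: Flt4 had -0.17, Cdh2 -0.10, Slc2a3 -0.09, Slc2a4 -0.08, Tie1 -0.07 and Mfsd2b -0.04, and Kdr, the main VEGF receptor, was 25.8 and 26.2 CPM. The direction of Cdh2, Slc2a3, Slc2a4 and Mfsd2b turned in at least 1 alternative, and that of Kdr too. No member shared exon bases with another gene of the count table. In the GENCODE vM21 annotation, Abcb1a shares 242 bases with the opposite-strand gene Gm42686 and Slc2a1 105 bases with Gm12868. Among the other named genes, Cd34 shares 148 exon bases with the antisense gene Gm16897, Ercc1 106 with Cd3eap, Pcdhgc3 1513 with BC037039 and Abcb1b 143 with Gm5106. Tagln shares 877 with the antisense gene Gm48529 and 99 with Pcsk7. Mylk also overlaps antisense genes, so the values of these genes are uncertain to that extent.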

How the data were processed

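RNA of 12 striatal libraries (6 saline, 6 varenicline, grouped by the labels) was made into Illumina TruSeq libraries and sequenced as 150 nt single reads, per the labels' protocols. The authors deposited raw counts per gene and the exon length of each gene in bases, FPKM values per the file headers, and Cuffnorm values, a signal of counts scaled between libraries. Trimmomatic, FastQC, TopHat2, featureCounts, DESeq2, Cuffdiff, Cuffnorm and build mm10 are named in the submitters' processing notes. Their versions, the annotation and the strand setting were not given in the sources used here, and reads of a gene and an antisense partner cannot be told apart. Libraries held 13340420 to 27917715 counts, so that 3 counts are 0.107 to 0.225 CPM. Such limits cover counting error only.

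The counts were tested with edgeR 4.0.16 (filterByExpr, TMM scaling, quasi-likelihood test, no covariate), with Benjamini-Hochberg adjustment over all 15148 genes. CPM values were TMM scaled, and correlations used log2 CPM with a prior count of 2. DESeq2 1.42.0, limma 3.58.1 on log2 of FPKM or Cuffnorm values plus a pseudocount, other scalings and filters, covariates and leaving out each library were alternatives, and the fits were tested on simulated data. Combining a covariate with a left-out library was chosen after seeing the data. The members, lists and tests were chosen with earlier results of these data known. Beside the members, the text names from each list of pathway or cell type genes the genes with the smallest unadjusted p (3 at most), all relatives of the members, and the 8 genes most correlated with their mean. Lists of the remaining cell types are given by counts. A gene that this rule names is not reported here. Replicate numbers follow the order of the samples and pair nothing.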

Additional observations from a re-analysis of the deposited data

Results flagged for a closer look

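In 5 of the 20 groups formed by 10 members and 2 treatments, 1 library stood apart from the other 5 by more than Dixon's 95% critical value. Chance gives about 1 in 20 groups if they are independent, but these groups share the same 12 libraries. Over all 56 named genes, members included, 12 of 112 groups were flagged, where chance gives 5.6. The share over all genes tested is not given here. Slc2a1 in saline 6 had a log2 CPM of 7.12, beside 6.77 to 6.85 in the other saline libraries, and Pecam1 in saline 6 had 5.26, beside 4.82 to 4.94. Slco1a4 in saline 6 had 5.74, beside 6.16 to 6.37. The same library was thus high for the glucose carrier and the adhesion protein and low for the anion carrier, and it also had the highest summed oligodendrocyte markers of the saline libraries, at 13822 CPM. Pecam1 in varenicline 1 had 4.63, beside 4.87 to 4.93 in the other varenicline libraries, and this library had the lowest total count. Cdh5 in varenicline 6 had 4.85, beside 4.21 to 4.45, and this library had the highest cortical marker sum of its group, 1148 CPM. What sets these libraries apart was not tested.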

How the results depend on the processing

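Over the 25 alternatives, no member passed an adjusted p of 0.05 except Slco1a4 and Mfsd2a, and neither of these 2 changed sign. The number of genes past the threshold, 0 with edgeR (2558 at an unadjusted p under 0.05), was 387 with DESeq2, 2099 with limma-voom, 10 with the cortical covariate, 4 with the endothelial covariate and 8 with the latter without saline 6. Leaving out 1 library gave 0 to 1628 genes and 0 to 2 members, with 1628 genes and 2 members without varenicline 6 and 4 genes without varenicline 2. DESeq2 and limma-voom called 2 members each. Signs turned as follows on the log2 scale, and the cause was not tested. With limma-voom, Mfsd2b was 0.0308 and Slc2a4 0.00496. Abcb1b was 0.0459 on log2 FPKM plus 1, 0.0924 plus 0.1 and 0.0985 on Cuffnorm values. With the cortical covariate, Ly6c1 was -0.10, Abcb1b 0.10, Cdh2 0.0282, Krtcap2 -0.0108 and Sptb -0.0209. With that covariate and without varenicline 6, chosen after seeing the data, Slc2a1 was -0.0882, Cdh5 -0.16, Ly6c1 -0.10, Abcb1b 0.33, Cdh2 0.13, Csf1r -0.13, Ercc1 -0.16, Kdr -0.0809, Krtcap2 -0.23, P2ry14 -0.16, Pcdhgc3 -0.0791, Pdgfrb -0.21, Reck -0.15, Slc2a3 0.0452, Slc2a4 0.12, Slc39a10 0.0868, Sptb -0.26, Tns1 -0.14 and Zfp598 -0.0776. With the endothelial covariate and without saline 6, Mfsd2b was 0.0768. Leaving out 1 library, Tek ran from -0.0935 to 0.00524, Cdh5 from -0.0409 to 0.10, Abcb1b from -0.11 to 0.0665, Kdr from -0.0467 to 0.0816, Mfsd2b from -0.16 to 0.0931 and Slc2a4 from -0.19 to 0.00852. Of the 46 other genes that the naming rule picked, 3 passed with DESeq2, 15 with limma-voom and 10 without varenicline 6. Among them were Slc4a4, Gja1, Mylk, Ackr1, Efnb2, Stmn2, Slc39a10 and Angpt1 in at least 1 of these. These fits called 3.1%, 13.9% and 10.7% of all the genes they tested. Many of the 46 were named for a small unadjusted edgeR p in the same libraries, so their passing in related fits is not independent of that choice.

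No paired analysis was possible because the replicate numbers follow the order of the samples and every label gives the same number.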

Other observations

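The haemoglobin genes Hba-a1, Hba-a2, Hbb-b1, Hbb-b2 and Hbb-bs had 0 counts in all libraries of the count table, while the authors' FPKM table gives the merged row of Hbb-b1 and Hbb-bs 200 to 372 FPKM with saline and 280 to 472 FPKM with varenicline. Hbb-b2 had 38.6 to 65.1 FPKM with saline and 53.5 to 87.4 FPKM with varenicline. Blood left in the tissue can thus not be read from the counts of these genes. Alas2, a haem synthesis gene of red blood cells that both tables hold, had 2.90 to 4.72 FPKM with saline and 3.69 to 5.73 FPKM with varenicline.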
